A study of Mus musculus with 9 samples.

Results

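The expression of 40 genes of the cell cycle was followed in cells sorted from mouse liver as lymphatic endothelium, after ligation of the bile duct. This operation blocks bile flow and causes cholestatic liver injury. Macrophage markers were abundant in the sorted RNA as well, as given below. The 40 genes were chosen by name as regulators and effectors of cell division, and all 40 were among the 21936 genes of the deposited expression table. Of these 40 genes, 30 averaged 10 or more normalized counts over the 9 libraries and were tested, among 11809 genes tested in all. The other 10 genes were below that level and are given as values only.

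The cells were sorted from livers of reporter mice with a knock-in of GFP at the interleukin-7 gene (IL7-GFP), described by the submitters as a reporter specific to lymphatic endothelium. There were 3 libraries from livers at 4 weeks after bile duct ligation (BDL), 3 from livers at 2 weeks after BDL and 3 from livers after sham surgery. Mice of all 3 groups carried the same reporter allele. The background strain, sex and age of the mice, the sorting gate and the time from sham surgery to collection are not given in the sources used here. Each library was made from total RNA of sorted cells after removal of ribosomal RNA. Expression is given as normalized counts, which are the reads counted on a gene divided by a factor for the depth of its library.

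A cell enters division when growth signals raise D-type cyclins, which bind Cdk4 and Cdk6 and relieve the block that the retinoblastoma protein places on E2F transcription factors. E2F then turns on cyclin E and the genes of DNA replication, and later cyclins A and B with Cdk1 and the mitotic genes carry the cell through G2 and mitosis, while Cdk inhibitors such as p21 and p27 hold the kinases back. Lymphatic endothelium is mostly quiescent in adult tissue and can divide when lymphatic vessels grow, as they do in injured liver.

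The library of sham replicate 2 stood apart from the others. It held 592419 reads counted on genes, against 2259239 to 5314381 reads in the other 8 libraries, and its median correlation with the other libraries was 0.774, against 0.888 to 0.928 for the other 8. In this library 1 read was worth 5.26 normalized counts, and 20 of the 40 genes had fewer than 10 reads there. The lymphatic marker Prox1, a transcription factor of lymphatic identity, was present in every library, at 444 to 1675 normalized counts at 4 weeks, 734 to 1659 at 2 weeks and 321 to 2209.6 in sham, with the lowest sham value in sham replicate 2. Macrophage and Kupffer cell markers were abundant in every library as well. Their 14 genes summed to 22483 to 51118 normalized counts at 4 weeks, 39665 to 86384 at 2 weeks and 36279 to 83274 in sham, against 27683 to 49748, 19202 to 50702 and 9642 to 48500.0 for 12 lymphatic markers in the same groups. The levels given here are those of the whole sorted RNA. In such bulk samples, fewer cells of a type and less RNA per cell cannot be told apart.

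None of the 30 tested genes passed an adjusted p of 0.05 in any of the 3 comparisons, by limma on log2(normalized count + 1) with adjustment over all 11809 genes or by the edgeR quasi-likelihood test, and the D-type cyclin Ccnd2 was the gene that came nearest. At 4 weeks against sham, 0 of 30 passed beside 1.20% of all genes tested, and 4 of 30 had an unadjusted p below 0.05, which is 13.3% beside 13.7% of all genes. Of these 4, Cdkn2c was higher, beside 6.43% of all genes, and Ccnd1, Ccnd2 and Pcna were lower, beside 7.30%. At 2 weeks against sham, 0 of 30 passed beside 0.0169% of all genes, and 3 of 30 had an unadjusted p below 0.05, beside 8.55% of all genes. These 3, Ccnd1, Ccnd2 and Mcm2, were lower, beside 4.20% of all genes, and 0 of 30 were higher, beside 4.35%. Between 4 and 2 weeks, 0 of 30 passed, as did 0 of all genes, and 0 of 30 had an unadjusted p below 0.05 beside 4.02% of all genes (0.982% higher and 3.04% lower). DESeq2 called 1 of the 30 genes, Ccnd2, at 4 weeks and again at 2 weeks against sham, and called 0 between 4 and 2 weeks. The shares of the cell cycle genes at an unadjusted p below 0.05 were thus near those of all genes against sham.

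The direction was mixed. At 4 weeks 18 of the 30 genes were above sham and 12 below, with a median log2 fold change of 0.11 beside 0.07 for all genes tested, 55.2% of which were above sham. At 2 weeks 12 were above and 18 below, with a median of −0.15 beside 0.07 for all genes, 55.6% of which were above sham. Between 4 and 2 weeks 23 were higher at 4 weeks and 7 lower, with a median of 0.19 beside 0.01 for all genes, 52.2% of which were higher. TMM scaling moved the median of all genes by −0.11 in that last comparison, so these differences are relative to the deposited scaling.

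Some genes had groups that did not overlap at all. At 4 weeks 2 of 30 genes lay wholly above sham (Cdkn2c and Cdk6) and 3 wholly below (Ccnd2, Ccnd1 and Mcm3), beside 8.60% of all genes above and 8.39% below. At 2 weeks 2 lay above (Cdkn1b and Cdkn2c) and 5 below (Ccnd2, Ccnd1, Mcm2, Mcm5 and Mcm3), beside 10.2% above and 7.71% below. Between 4 and 2 weeks 4 were wholly higher at 4 weeks (Ccnd2, Cenpe, Cdkn2c and Mcm4) and 0 wholly lower, beside 4.34% and 5.06%. The lowest 4-week and highest 2-week values were 88.7 and 88.4 for Ccnd2, and 84.9 and 84.6 for Mcm4. In those 4-week libraries, replicates 1 and 3, 1 read was worth 0.785 and 1.23 normalized counts, so these 2 gaps were smaller than 1 read. The gaps of Mcm2 and Mcm5 below sham at 2 weeks were narrow as well. The gap of Cdkn2c above sham at 2 weeks was smaller than 1 read of sham replicate 2. The comparisons of 4 weeks and of 2 weeks share their sham libraries, so a gene low at both times is not 2 separate measurements of its sham level.

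**Figure D1:**
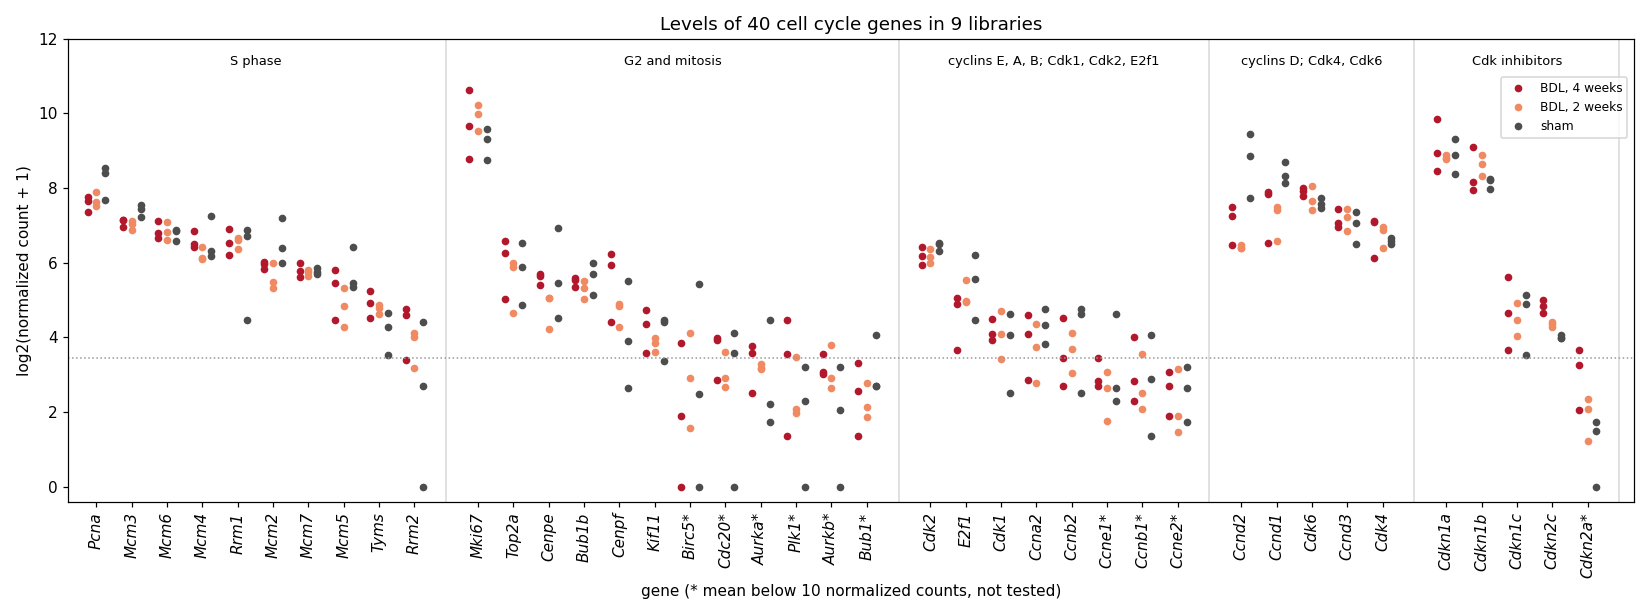
Levels of the 40 cell cycle genes, grouped by role, as log2(normalized count + 1); each point is 1 library, with BDL 4 weeks left of BDL 2 weeks and sham, and an asterisk marks the 10 genes below a mean of 10 normalized counts (dotted line). Mki67 and Cdkn1a are the highest by this measure, and the points of the 3 groups interleave for most genes.

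Ccnd2 and Ccnd1 had the lowest and next lowest p of the 30 genes against sham, at 4 weeks and again at 2 weeks. Ccnd2 (cyclin D2; ENSMUSG00000000184, chromosome 6, 127125162 to 127152193, minus strand, GRCm38) partners Cdk4 and Cdk6 at the start of the cycle, and its exons are overlapped by 2 annotated genes of the other strand. It had 88.7, 181 and 153 normalized counts at 4 weeks, 88.4, 82.97 and 82.6 at 2 weeks and 462, 210.3 and 695 in sham. All 6 BDL libraries were below all 3 sham libraries, and the lowest sham value, from 40 reads, belonged to sham replicate 2. All 3 libraries at 4 weeks were above all 3 at 2 weeks, but at the closest only by 88.7 against 88.4. The means were 141 ± 47.2 at 4 weeks, 84.7 ± 3.26 at 2 weeks and 456 ± 242 in sham (SD, n = 3 each).

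The log2 fold change of Ccnd2 was −1.59 ± 0.42 (SE) at 4 weeks, with a 95% interval of −2.52 to −0.66 and an adjusted p of 0.109 by limma. At 2 weeks it was −2.25 ± 0.42, with an interval of −3.18 to −1.32 and an adjusted p of 0.168. Without sham replicate 2 the limma values became −2.06 at 4 weeks with an adjusted p of 0.0189, and −2.73 at 2 weeks with an adjusted p of 0.0207. The call by unweighted limma thus changed with that library. Limma with weights for library quality called Ccnd2 with all 9 libraries, at adjusted p-values of 0.00149 at 4 weeks and 0.000189 at 2 weeks. With all 9 libraries, edgeR gave adjusted p-values of 0.0703 at 4 weeks and 0.114 at 2 weeks, and DESeq2 gave 0.00285 at 4 weeks and 1.28e-05 at 2 weeks. Over all 21 alternatives tried, the adjusted p of Ccnd2 ran from 0.00149 to 0.271 at 4 weeks, with 4 of 21 below 0.05, and from 1.28e-05 to 0.565 at 2 weeks, with 5 of 21 below 0.05, and its log2 fold change was below 0 in each of them. Between 4 and 2 weeks the difference was 0.67 ± 0.42, with an interval of −0.26 to 1.59 and an adjusted p of 1.0 by limma (0.0470 to 1.0 over the alternatives).

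Ccnd1 (cyclin D1; ENSMUSG00000070348, chromosome 7, 144929931 to 144939925, minus strand) is the D-type cyclin that most growth factor signals induce. It had 91.8, 239 and 229 normalized counts at 4 weeks, 178, 170.5 and 95.4 at 2 weeks and 322, 279 and 413 in sham. No BDL library reached the lowest sham library at either time, and the 4-week and 2-week libraries overlapped, with the lowest value in replicate 1 of the 4-week group. The means were 187 ± 82.2 at 4 weeks, 148 ± 45.7 at 2 weeks and 338 ± 68.5 in sham (SD, n = 3 each). The log2 fold change was −0.96 ± 0.39 at 4 weeks (95% interval −1.84 to −0.07, adjusted p 0.318 by limma) and −1.22 ± 0.39 at 2 weeks (interval −2.10 to −0.34, adjusted p 0.435). Without replicate 1 of the 4-week group, the 4-week value was −0.51.

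The partners of these cyclins had values nearer to sham. Ccnd3, the remaining D-type cyclin, had 124 to 173 normalized counts at 4 weeks, 114 to 174 at 2 weeks and 89.4 to 164 in sham. Cdk4, a kinase that D-type cyclins activate, had 69.1 to 138 at 4 weeks, 82.6 to 123 at 2 weeks and 89.4 to 100.5 in sham. Cdk6, its close relative, had 219.8, 258 and 239.9 at 4 weeks, all above the 191, 210.3 and 175 of sham, and 267, 201 and 169.9 at 2 weeks, which overlapped sham. The log2 fold change of Cdk6 at 4 weeks was 0.32 ± 0.22, with an unadjusted p of 0.183 by limma. Of the 5 genes in this role, 2 lay wholly below sham at both times, Ccnd1 and Ccnd2, beside 3.85% of all genes tested, and 1 wholly above at 4 weeks, Cdk6, beside 8.60% of all genes.

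**Figure D2:**
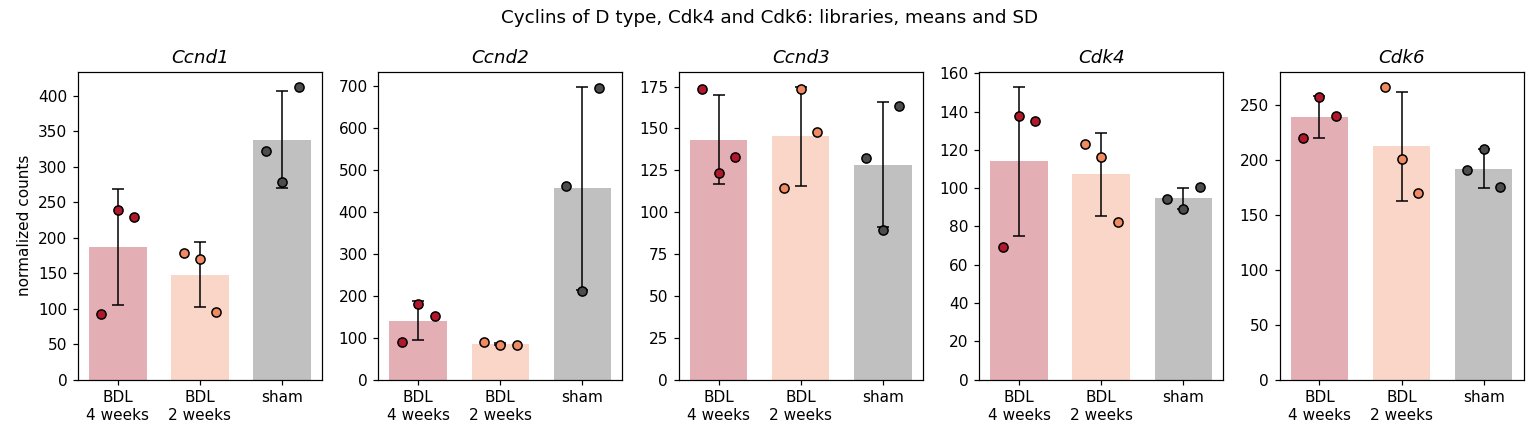
Normalized counts of the D-type cyclins, Cdk4 and Cdk6, with bars for group means, whiskers for SD (n = 3) and 1 point per library; each panel has its own axis starting at 0. Ccnd1 and Ccnd2 are lower in all 6 BDL libraries than in any sham library, while Ccnd3 and Cdk4 overlap sham at both times.

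Some cell type markers differed between the same groups, while the sums of several lists overlapped. Of all genes tested, 6.43% were higher and 7.30% lower at 4 weeks at an unadjusted p below 0.05 by limma. At 2 weeks these shares were 4.35% and 4.20%. Of 12 lymphatic markers 11 were tested, and 0 passed at either time. Against sham 7 were above and 4 below at 4 weeks, and again 7 and 4 at 2 weeks. Lyve1 was higher (log2 fold change 1.72) and Cdh5 lower (−0.72) at 4 weeks, each at an unadjusted p below 0.05 by limma, and 0 were at 2 weeks. The lymphatic chemokine gene Ccl21a was at 0 to 0.917 normalized counts. Cholangiocyte markers (8 genes, all tested) summed to 629 to 2418 normalized counts at 4 weeks, 636 to 1466 at 2 weeks and 1926 to 2959.8 in sham, with 0 of 8 passing at either time and 5 of 8 lower at an unadjusted p below 0.05 at each. Above sham were 1 of the 8 at 4 weeks, Krt7 (log2 fold change 0.83), and 2 at 2 weeks, Krt7 (0.69) and Cftr (0.22). Sinusoidal endothelial markers (9 tested genes) summed to 9415 to 14391, 9875 to 12873 and 6976 to 19506 in the same order, and 1 of 9 passed at 4 weeks, Dnase1l3, which fell, and 0 of 9 at 2 weeks, with 2 of 9 lower at an unadjusted p below 0.05 at each time. The sinusoidal markers above sham were 5 of 9 at 4 weeks and 3 of 9 at 2 weeks, 0 of them at an unadjusted p below 0.05. Of 14 macrophage markers, 2 fell at 4 weeks, the Kupffer cell genes Clec4f and Timd4, and 0 passed at 2 weeks, with 4 lower at 4 weeks and 2 higher at 2 weeks at an unadjusted p below 0.05. The 11 T and NK cell markers in the table summed to 33.8 to 67.7 at 4 weeks, 47.03 to 61.6 at 2 weeks and 132 to 174 in sham. Most of the sham sums was Cd4, which had 115, 131 and 154 normalized counts in sham. Cd4 had 24.3, 21.5 and 6.15 at 4 weeks and 39.5, 27.4 and 38.6 at 2 weeks. Of these markers only Cd4 was high enough to test, and it fell at 4 weeks, so the sums do not describe the others. Cd3e, which defines T cells, was at 0 to 4.48 normalized counts in every library. Stellate cell and fibroblast markers (10 tested) summed to 806 to 2889 at 4 weeks, 1075 to 3741 at 2 weeks and 174 to 857 in sham, with 0 of 10 passing at either time and 4 of 10 higher at an unadjusted p below 0.05 at each. Hepatocyte markers (9 tested, 0 passing and 1 higher at an unadjusted p below 0.05 at each time) summed to 1313 to 18101, 3276 to 9101 and 982 to 12838 in the same order. Neutrophil and monocyte markers (10 genes, 4 tested) summed to 108 to 151, 66.01 to 403 and 28.04 to 42.1 in that order, and 1 of the 4, the neutrophil collagenase Mmp8, rose at 4 weeks. The part of these markers in the cyclin values was not tested.

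Among the Cdk inhibitors, Cdkn2c was the gene whose 3 groups were wholly separate. Cdkn2c (p18; ENSMUSG00000028551, chromosome 4, 109660876 to 109667189, minus strand) binds Cdk4 and Cdk6 and blocks their cyclins. It had 27.5, 24.2 and 30.8 normalized counts at 4 weeks, 18.3, 20.3 and 19.6 at 2 weeks and 14.7, 15.8 and 14.8 in sham. Every 4-week library was above every 2-week library, and every 2-week library above every sham library. However, the value of sham replicate 2 came from 3 reads, and 1 read there was worth 5.26 normalized counts. Its distance from the lowest 2-week library, 15.8 against 18.3, was thus smaller than 1 read. The means were 27.5 ± 3.29 at 4 weeks, 19.4 ± 1.01 at 2 weeks and 15.1 ± 0.602 in sham (SD, n = 3 each). The log2 fold change was 0.82 ± 0.34 at 4 weeks (95% interval 0.06 to 1.58, adjusted p 0.320 by limma), 0.34 ± 0.34 at 2 weeks (interval −0.42 to 1.10) and 0.48 between 4 and 2 weeks (interval −0.28 to 1.24).

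The other tested inhibitors overlapped sham at 4 weeks. Cdkn1a (p21; ENSMUSG00000023067, chromosome 17, 29090976 to 29100727, plus strand), the main Cdk inhibitor induced by p53, had 926, 352 and 488 normalized counts at 4 weeks, 437, 446 and 469.8 at 2 weeks and 639, 473 and 333 in sham. The highest value of the 9 was replicate 1 of the 4-week group, and the other 2 libraries of that group lay within the sham range. It differed from sham by a log2 fold change of 0.22 at 4 weeks (95% interval −0.58 to 1.02, adjusted p 0.823 by limma) and −0.05 at 2 weeks (interval −0.84 to 0.75, adjusted p 0.974). At 4 weeks its value was −0.17 without replicate 1 of the 4-week group and −0.021 without sham replicate 3, and at 2 weeks it was 0.18 without sham replicate 1. Per kilobase of exon, Cdkn1a had the highest mean level of the 40 genes, at 143 normalized counts per kilobase.

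Cdkn1b (p27), an inhibitor typical of resting cells, had 550.3, 247 and 287 normalized counts at 4 weeks, 321, 399.8 and 470.4 at 2 weeks and 295, 252 and 303 in sham. All 3 libraries at 2 weeks were above sham, with a log2 fold change of 0.47 ± 0.30 and an unadjusted p of 0.153 by limma. Cdkn1c (p57), an imprinted inhibitor of the same family, had 11.8, 24.2 and 47.99 at 4 weeks, 15.3, 20.9 and 29.1 at 2 weeks and 33.9, 10.5 and 28.8 in sham, with overlapping groups. Its log2 fold change was 0.13 at 4 weeks (95% interval −1.20 to 1.46, adjusted p 0.946 by limma) and −0.05 at 2 weeks (interval −1.38 to 1.28), and its 4-week value was −0.35 without replicate 3 of that group and −0.36 without sham replicate 2, while its 2-week value was 0.17, 0.25 and 0.14 without replicate 1 of that group, sham replicate 1 and sham replicate 3. Cdkn2a, whose locus encodes p16 and p19Arf and is a marker of senescence, was below the level for testing, at 3.14, 11.6 and 8.61 normalized counts at 4 weeks, 4.13, 3.27 and 1.35 at 2 weeks and 1.83, 0 and 2.34 in sham. Every 4-week library was above every sham library, at 0 to 13 reads of Cdkn2a in a library. Limma without the filter on low values gave Cdkn2a a log2 fold change of 1.91 at 4 weeks (95% interval 0.22 to 3.60, adjusted p 0.242). Sham replicate 2 had 0 reads of Cdkn2a, which allows up to 15.8 normalized counts at 3 reads, so this library does not bound its level below that of the others.

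The replication genes of S phase were represented by 10 of the genes, all tested, with a median log2 fold change of 0.02 at 4 weeks and −0.20 at 2 weeks. Pcna, the sliding clamp of DNA polymerases, had 217, 202 and 162 normalized counts at 4 weeks, 184, 197 and 236 at 2 weeks and 337, 368 and 204 in sham. The highest pair of values was in sham replicates 1 and 2, and sham replicate 3 lay within the range of both BDL groups. Against sham the log2 fold change of Pcna was −0.60 ± 0.26 at 4 weeks (95% interval −1.19 to −0.02, adjusted p 0.344 by limma) and −0.52 ± 0.26 at 2 weeks (interval −1.11 to 0.07, adjusted p 0.604). Leaving out sham replicate 2 gave −0.44 at 4 weeks and −0.36 at 2 weeks.

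The Mcm genes encode the 6 subunits of the helicase that opens replication origins. Of these, 3 (Mcm2, Mcm3 and Mcm5) lay wholly below sham at 2 weeks, beside 7.71% of all genes tested. Mcm2 had 56.5, 63.6 and 61.5 normalized counts at 4 weeks, 62.5, 43.8 and 39.3 at 2 weeks and 83.4, 147 and 63.1 in sham, with a log2 fold change at 2 weeks of −0.94 ± 0.34 (95% interval −1.68 to −0.19, adjusted p 0.489 by limma). The highest sham value of Mcm2 was that of sham replicate 2, from 28 reads, and sham replicate 3 lay just above the highest 2-week library. Without sham replicate 2 the 2-week log2 fold change of Mcm2 was −0.60. Mcm5 had 21.2, 42.98 and 55.4 at 4 weeks, 38.9, 18.3 and 27.8 at 2 weeks and 43.1, 84.1 and 39.7 in sham, again with sham replicate 2 the highest and with a log2 fold change at 2 weeks of −0.93 ± 0.46 (interval −1.96 to 0.10). For Mcm5 too, sham replicate 3 lay just above the highest 2-week library, and the 2-week log2 fold change without sham replicate 2 was −0.59.

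Mcm3 had 139.7, 123 and 140.3 normalized counts at 4 weeks, 137, 129 and 117 at 2 weeks and 186, 173 and 148 in sham. It was the S phase gene below sham in all 6 BDL libraries, by a log2 fold change of −0.33 ± 0.20 at 4 weeks (95% interval −0.77 to 0.12) and −0.40 ± 0.20 at 2 weeks (interval −0.84 to 0.05, adjusted p 0.604 by limma). Mcm4 had 115, 89.5 and 84.9 at 4 weeks, 69.5, 67.3 and 84.6 at 2 weeks and 77.9, 152 and 71.7 in sham. Its 4-week libraries overlapped sham and lay above the 2-week ones, by 0.38 ± 0.31 (interval −0.32 to 1.07), but at the closest only by 84.9 against 84.6. Mcm6 ranged from 94.6 to 139 and Mcm7 from 47.9 to 62.7 normalized counts over the 9 libraries, with overlapping groups.

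The nucleotide genes were read few times in sham replicate 2. Tyms, the thymidylate synthase that makes the thymine nucleotide, had 21.98, 29.5 and 36.9 normalized counts at 4 weeks, 23.6, 26.8 and 28.4 at 2 weeks and 18.3, 10.5 and 24.1 in sham, with 2 reads in sham replicate 2. Its log2 fold change at 4 weeks was 0.75 ± 0.40 (95% interval −0.14 to 1.64, adjusted p 0.449 by limma), and 0.44 without sham replicate 2. Rrm1 and Rrm2, the subunits of ribonucleotide reductase, ranged from 21.03 to 118 and from 0 to 25.97 normalized counts, and the lowest value of each was in sham replicate 2, with 4 reads of Rrm1 and 0 of Rrm2.

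**Figure D3:**
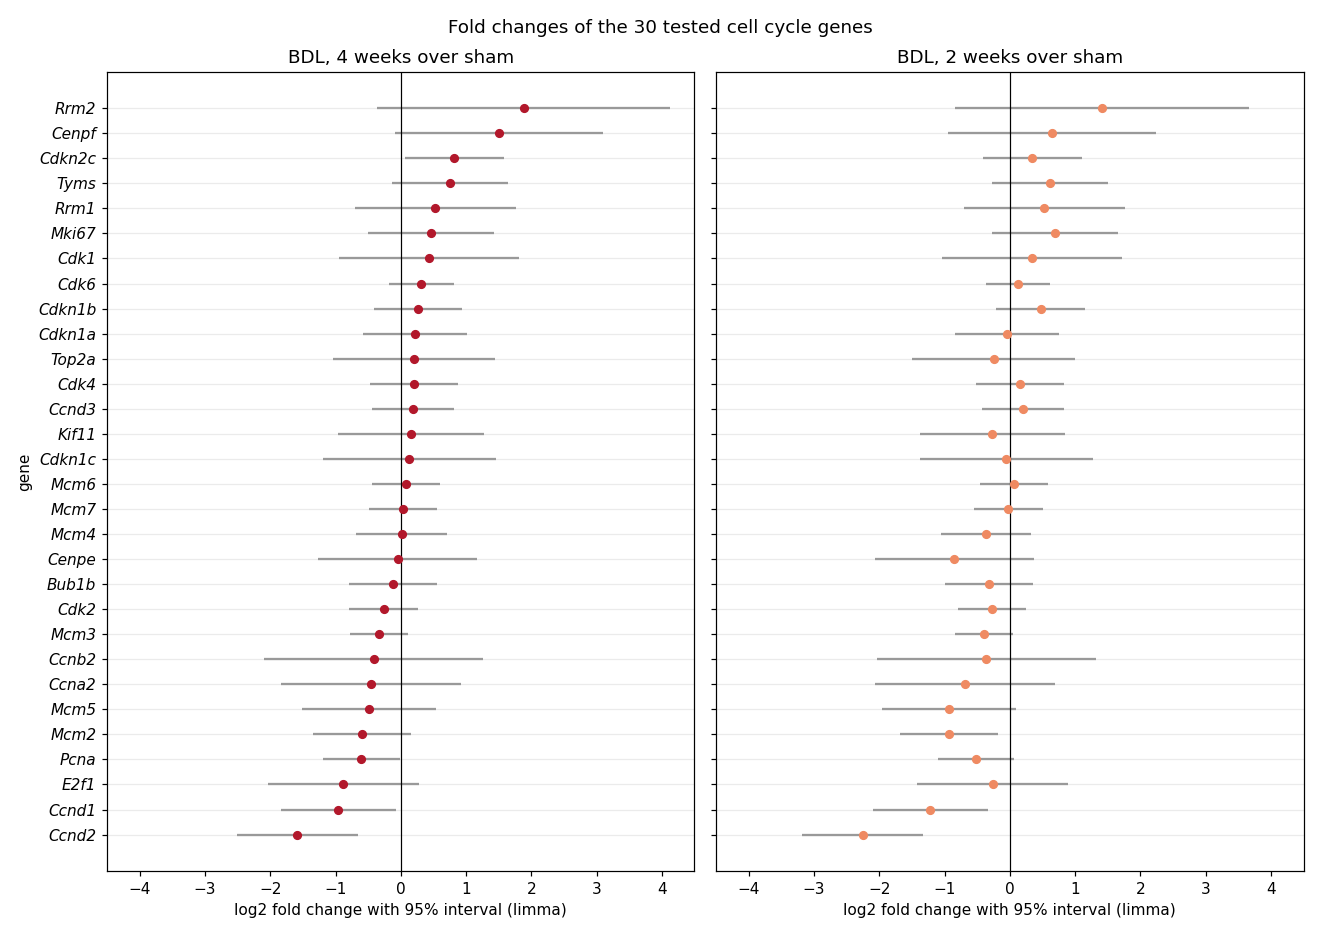
Log2 fold changes of the 30 tested genes by limma, at 4 weeks over sham (left) and 2 weeks over sham (right), with 95% intervals, in the order of the 4-week value. The intervals of Ccnd2 and Ccnd1 lie below 0 at both times, that of Cdkn2c lies above 0 at 4 weeks, and most others span 0.

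The G2 and mitosis genes, which are transcribed late in the cycle, were low apart from Mki67. Mki67 (Ki-67; ENSMUSG00000031004, chromosome 7, 135689784 to 135716361, minus strand), which encodes the coat protein of mitotic chromosomes used as the standard stain for cycling cells, had a mean of 83.9 normalized counts per kilobase of exon over the 9 libraries. The other 11 genes of this role had 1.38 to 10.3 per kilobase, and Top2a, the topoisomerase that untangles replicated chromosomes, had 6.45. Mki67 made up 56.7% to 90.5% of the summed normalized counts of these 12 genes in a library.

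Mki67 had 1572, 437 and 808 normalized counts at 4 weeks, 1022, 736 and 1188 at 2 weeks and 760.2, 641 and 435 in sham. Replicate 1 of the 4-week group was the highest of the 9 and the other 2 libraries of that group lay on either side of the highest sham value, and the 2-week libraries overlapped sham too. The means were 939 ± 578 at 4 weeks, 982 ± 229 at 2 weeks and 612 ± 165 in sham (SD, n = 3 each). The log2 fold change was 0.46 ± 0.43 at 4 weeks (95% interval −0.50 to 1.42, adjusted p 0.680 by limma), 0.69 ± 0.43 at 2 weeks (interval −0.27 to 1.65, adjusted p 0.665) and −0.23 between 4 and 2 weeks (interval −1.19 to 0.73). Without replicate 1 of the 4-week group the 4-week value was −0.0044, and without replicate 2 of that group the value between 4 and 2 weeks was 0.23.

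Top2a (ENSMUSG00000020914, chromosome 11, 98992943 to 99024189, minus strand) had 31.4, 94.9 and 76.3 normalized counts at 4 weeks, 57.8, 24.2 and 62.3 at 2 weeks and 90.8, 57.8 and 28.04 in sham, and all 3 groups overlapped. The means were 67.5 ± 32.6 at 4 weeks, 48.1 ± 20.8 at 2 weeks and 58.9 ± 31.4 in sham (SD, n = 3 each). For Top2a the log2 fold change was 0.21 at 4 weeks (95% interval −1.04 to 1.45, adjusted p 0.905 by limma) and −0.25 at 2 weeks (interval −1.49 to 1.0, adjusted p 0.910). The 4-week value was −0.11 without replicate 2 of that group and −0.24 without sham replicate 3, and the 2-week value was 0.18 without replicate 2 of that group and 0.14 without sham replicate 1. The 4-week interval with all libraries still holds differences of more than 1 on the log2 scale in either direction.

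Of the centromere and spindle genes, Cenpf, a kinetochore protein of late G2, had 20.4, 59.99 and 73.8 normalized counts at 4 weeks, 28.9, 18.3 and 27.8 at 2 weeks and 44.9, 5.26 and 14.02 in sham. The 4-week log2 fold change of Cenpf was 1.5 ± 0.71 (95% interval −0.09 to 3.09, adjusted p 0.391 by limma), with the groups overlapping and 1 read in sham replicate 2. It was 0.81 without that library. Cenpe, a kinetochore motor, had 41.6, 51.04 and 49.2 at 4 weeks, 32.4, 17.6 and 32.5 at 2 weeks and 43.1, 121 and 21.8 in sham, so that it was higher in all 3 libraries at 4 weeks than at 2 weeks, by 0.81 ± 0.54 (interval −0.41 to 2.02). Bub1b, a kinase-like protein of the spindle checkpoint, ranged from 31.8 to 63.1, and Kif11, the motor that separates the spindle poles, from 9.35 to 25.8 normalized counts, both with groups that overlapped.

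The remaining 6 genes of this role, the mitotic kinases Aurka, Aurkb, Plk1 and Bub1, the survivin gene Birc5 and the mitotic exit activator Cdc20, averaged below the level for testing. With Ccne1, Ccne2, Ccnb1 and Cdkn2a they made up the 10 untested genes, which had 0 to 26 reads in a library and 0 to 42.1 normalized counts. The highest of these, 42.1 for Birc5, was sham replicate 2 with 8 reads, while Birc5 was at 0 in replicate 1 of the 4-week group and in sham replicate 3. Sham replicate 2 had 0 reads of 4 of the 10 genes, a depth at which a level under 15.8 normalized counts is not distinguished from 0.

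Among the cyclins and kinases of the later cycle, 1 of 5 tested genes was above sham at 4 weeks and 4 below, with a median log2 fold change of −0.41, and at 2 weeks again 1 was above and 4 below, with a median of −0.27, none of them passing. E2f1, the transcription factor that starts the S phase program, had 11.8, 28.7 and 31.99 normalized counts at 4 weeks, 45.4, 30.1 and 30.5 at 2 weeks and 46.8, 73.6 and 21.03 in sham. Its log2 fold change was −0.88 ± 0.52 at 4 weeks (95% interval −2.04 to 0.27, adjusted p 0.497 by limma) and −0.62 ± 0.52 between 4 and 2 weeks (interval −1.78 to 0.54), with overlapping groups. The 4-week value of E2f1 was −0.48 without sham replicate 2. Cdk2, the kinase of cyclins E and A, ranged from 60.3 to 90.8 normalized counts. Cdk1, the mitotic kinase, ranged from 4.67 to 25.05, and its cyclins Ccna2 from 5.88 to 26.3 and Ccnb2 from 4.67 to 26.3 normalized counts. The cyclin E genes Ccne1 and Ccne2 and the cyclin B1 gene Ccnb1 were below the level for testing, at 2.36 to 23.8, 1.77 to 8.25 and 1.56 to 15.8 normalized counts.

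The library lowest in Mki67 was also the lowest for most other late genes at 2 weeks and in sham, but not at 4 weeks. In replicate 1 of the 4-week group, where Mki67 was highest of all, each of 8 others (Top2a, Bub1b, Cenpe, Cenpf, Kif11, Ccna2, Ccnb2 and Cdk1) had its lowest value of the 3 libraries of that group. In the 2-week group, replicate 2 had the lowest Mki67 and the lowest value of 7 of the 8 genes, and in the sham group replicate 3 had the lowest Mki67 and the lowest value of 7 of the 8. The order within groups was looked at after the values were seen. Each group has 3 libraries and the 8 genes mostly moved together, so these counts are not separate observations. Over the 9 libraries the Pearson correlation of Mki67 with these 8 genes, on log2(normalized count + 1), ran from −0.30 to 0.37 with a median of −0.08, and 3 of 8 were above 0. Among the 8 genes themselves, the 28 pairs ran from −0.18 to 0.86 with a median of 0.64, and 26 of 28 were above 0. Without sham replicate 2, the 28 pairs ran from 0.45 to 0.98 and those with Mki67 from −0.26 to 0.38.

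The pair of Top2a and Kif11 had r = 0.85 (exact permutation p 0.00463, adjusted 0.0739 over 36 pairs) and Spearman rho = 0.72 (exact permutation p 0.0369), and r = 0.75 without the 2 libraries farthest from the median of Top2a. The pair of Mki67 and Top2a had r = −0.12 (exact permutation p 0.747) and rho = −0.02 (exact permutation p 0.982), and r = −0.23 without the 2 farthest libraries. None of the 36 pairs had an adjusted p below 0.05, and the difference between the pairs with Mki67 and the pairs without it was not tested. These libraries share the sort and differ in depth, and many of the late genes have few reads, so the values are a description of 9 libraries. Macrophage markers summed to 51118 normalized counts in replicate 1 of the 4-week group, against 22483 and 26575 in the other 2 libraries of that group, and lymphatic markers to 27683 against 46639 and 49748, and their part in the Mki67 level was not tested.

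**Figure D4:**
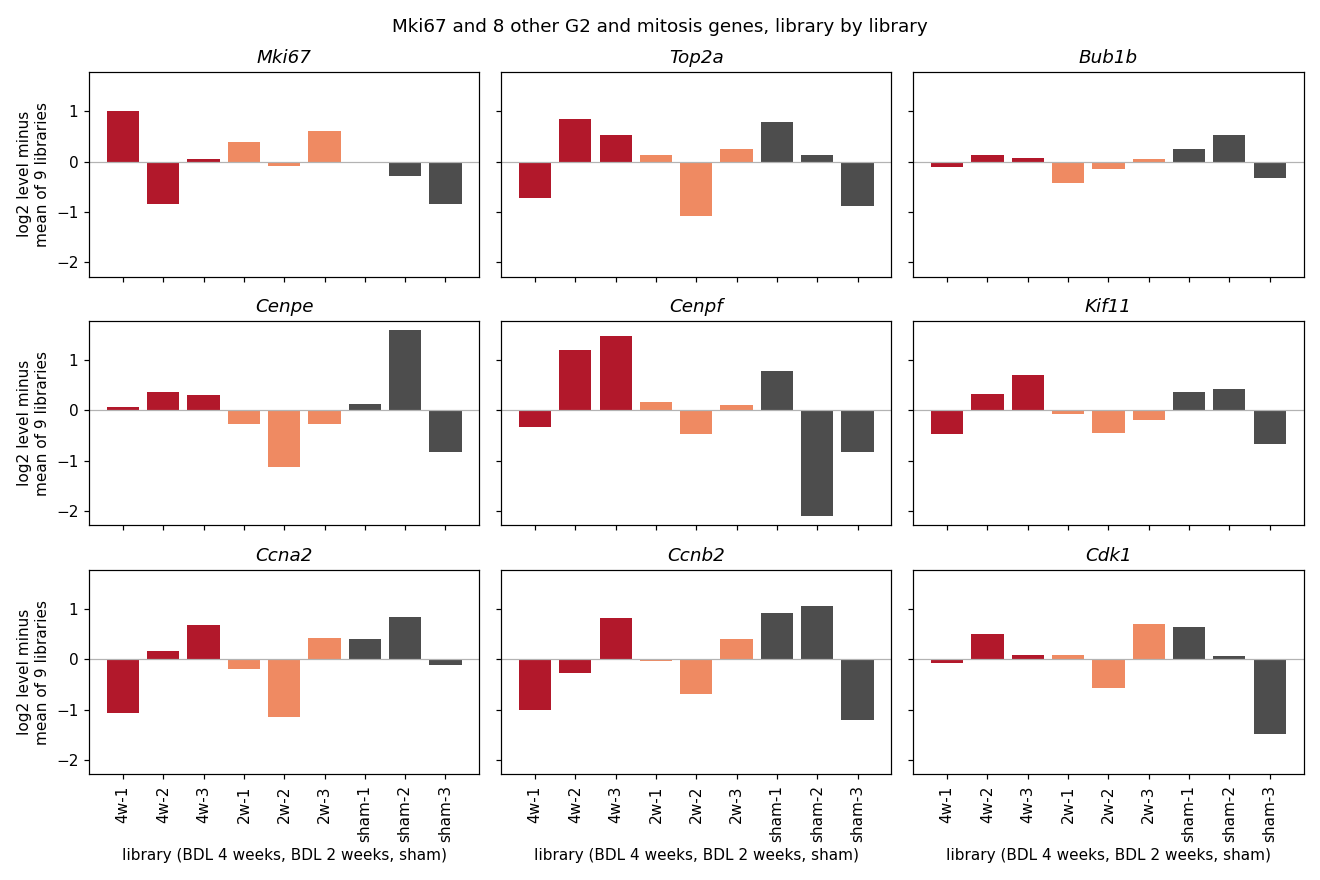
Mki67 and 8 other late cell cycle genes in each library, as log2(normalized count + 1) minus the mean over the 9 libraries, with 4-week, 2-week and sham libraries left to right. Mki67 is highest in the first 4-week library, where each of the other 8 genes is at its lowest of that group, and in the 2-week and sham groups it is lowest in the library that is also lowest for 7 of the 8.

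Promoters of 4 late genes, Mki67 among them, are shown so that the letters of their shared late-cycle elements can be read beside these profiles. The sequences are RefSeq windows of GRCm38.p6 from 250 bases before to 50 bases after the annotated start, and 33 of the 40 genes had a window. The letters searched on both strands were TTTGAA and TTCGAA for the cell cycle homology region (CHR), the element through which the DREAM and MuvB complexes act on late genes in mammalian cells, and CCAAT for the CCAAT box bound by NF-Y. TTCGAA reads the same on both strands and was counted once. Capitals mark these matches, and TTCAAA and ATTGG are the same letters read on the other strand. The windows were chr11:99024140-99024439 on the minus strand for Top2a, chr19:37376132-37376431 on the plus strand for Kif11, chr9:70421505-70421804 on the minus strand for Ccnb2 and chr7:135716330-135716629 on the minus strand for Mki67.
Top2a: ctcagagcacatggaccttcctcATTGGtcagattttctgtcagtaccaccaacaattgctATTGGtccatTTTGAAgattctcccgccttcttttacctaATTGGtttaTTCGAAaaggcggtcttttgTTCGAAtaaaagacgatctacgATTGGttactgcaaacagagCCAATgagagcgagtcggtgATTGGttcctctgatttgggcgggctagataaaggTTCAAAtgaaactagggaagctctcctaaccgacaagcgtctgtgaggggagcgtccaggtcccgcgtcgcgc
Kif11: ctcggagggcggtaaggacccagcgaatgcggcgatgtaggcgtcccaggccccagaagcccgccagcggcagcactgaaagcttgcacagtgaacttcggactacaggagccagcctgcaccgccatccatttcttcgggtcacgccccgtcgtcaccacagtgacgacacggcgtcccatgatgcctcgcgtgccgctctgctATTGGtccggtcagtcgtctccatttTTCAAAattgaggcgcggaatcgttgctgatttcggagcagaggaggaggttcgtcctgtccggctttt
Ccnb2: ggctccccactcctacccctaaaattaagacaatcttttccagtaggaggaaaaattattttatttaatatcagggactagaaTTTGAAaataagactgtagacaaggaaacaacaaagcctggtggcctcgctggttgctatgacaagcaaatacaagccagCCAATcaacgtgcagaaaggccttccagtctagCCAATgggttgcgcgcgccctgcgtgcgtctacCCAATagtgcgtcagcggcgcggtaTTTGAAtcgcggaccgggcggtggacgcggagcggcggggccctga
Mki67: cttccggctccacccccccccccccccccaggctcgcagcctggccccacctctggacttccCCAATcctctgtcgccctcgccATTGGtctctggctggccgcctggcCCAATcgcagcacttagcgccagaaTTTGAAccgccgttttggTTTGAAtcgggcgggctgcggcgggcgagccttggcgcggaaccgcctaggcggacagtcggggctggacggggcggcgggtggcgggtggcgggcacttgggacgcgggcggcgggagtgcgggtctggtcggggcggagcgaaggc
The window of Top2a held 4 CHR matches and 6 CCAAT matches, that of Kif11 1 of each, that of Ccnb2 2 CHR and 3 CCAAT, and that of Mki67 2 CHR and 3 CCAAT. The Mki67 window therefore held the same 2 kinds of letters as the other late genes printed here.

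Over the G2 and mitosis genes, 9 of 11 windows (81.8%) held the CHR letters, against 2 of 10 windows (20.0%) of the S phase genes and 19.2% of all 32851 windows of the same length. CCAAT was in 10 of 11 windows of the G2 and mitosis genes and 9 of 10 of the S phase genes, against 37.4% of all windows. The E2F letters GGCGGGAA, TTTGGCGC and TTTCGCGC were in 5 of 10 S phase windows and in 0 of 11 G2 and mitosis windows, against 2.96% of all windows. A match shows that the letters are there, and no binding was measured. Ccnd1 and Ccnd2 are not in the promoter table used here.

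Beyond the 40 genes, 114 further cell cycle genes in 4 lists gave no gene past an adjusted p of 0.05 in any comparison by limma. Of the 95 of them that were tested, 4 were higher and 5 lower at 4 weeks at an unadjusted p below 0.05, which is 9.47% beside 13.7% of all genes. At 2 weeks 1 was higher and 1 lower, or 2.11% beside 8.55%, and between 4 and 2 weeks 0 were higher and 2 lower. Their median log2 fold change was 0.23 at 4 weeks and 0.09 at 2 weeks, beside 0.07 for all genes at each time.

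In the DNA replication list (28 of 32 tested, median 0.32 at 4 weeks and 0.10 at 2 weeks), the gene with the lowest p at 4 weeks was Chaf1a, a chaperone that places histones on new DNA. It had 55.7, 65.4 and 51.7 normalized counts at 4 weeks and 30.3, 15.8 and 29.6 in sham, a log2 fold change of 1.21 ± 0.35 with an adjusted p of 0.152 by limma. The Chaf1a value of sham replicate 2 came from 3 reads. Pold1, the catalytic subunit of DNA polymerase delta, had a log2 fold change of −0.86 (adjusted p 0.248 by limma) and Wdhd1, a replisome scaffold, one of 1.25 (adjusted p 0.277). At 2 weeks Mcm10, which helps to start the helicase, had −1.23 (adjusted p 0.566 by limma). Its sham values were 19.3, 84.1 and 21.03 normalized counts, the highest in sham replicate 2. Between 4 and 2 weeks Tk1, thymidine kinase, had 32.97, 31.3 and 9.84 normalized counts at 4 weeks and 99.6, 36.6 and 114 at 2 weeks, a log2 fold change of −1.73 (adjusted p 0.939 by limma).

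The mitosis list (29 of 42 tested) had a median log2 fold change of 0.25 at 4 weeks and −0.05 at 2 weeks. Kif23, a motor of the dividing midzone, had the lowest p at 4 weeks, with a log2 fold change of −1.16 (adjusted p 0.243 by limma), followed by Pttg1, the securin that guards sister chromatids, with −0.77 (adjusted p 0.344), and Smc4, a condensin subunit, with 0.70 (adjusted p 0.348). The lowest p at 2 weeks was that of Hmmr, a spindle-binding protein, with −1.78 (adjusted p 0.595 by limma), and between 4 and 2 weeks that of Kif23, with −0.77 (adjusted p 1.0). All 18 genes of the E2F, RB and DREAM list were tested, with a median of 0.37 at 4 weeks and 0.18 at 2 weeks. Lin9, a core subunit of the DREAM and MuvB complexes, had 50.2, 19.7 and 36.9 normalized counts at 4 weeks and 18.3, 5.26 and 8.57 in sham, a log2 fold change of 1.71 ± 0.52 with an adjusted p of 0.178 by limma. The Lin9 value of sham replicate 2 came from 1 read. E2f4, the E2F factor that binds DREAM in resting cells, came next at 4 weeks with −0.52 (adjusted p 0.358 by limma). It also had the lowest p between 4 and 2 weeks, with −0.34 (adjusted p 1.0), and Tfdp1, the E2F dimer partner, had the lowest at 2 weeks, with 0.70 (adjusted p 0.582 by limma). Rbl2, the pocket protein p130 of resting cells, had 0.76 at 4 weeks and 0.82 at 2 weeks (adjusted p 0.406 and 0.589 by limma).

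The list of further Cdk inhibitors, p53 targets and arrest genes (20 of 22 tested) had a median of −0.24 at 4 weeks and −0.08 at 2 weeks. Its lowest p at 4 weeks was that of Zmat3, an RNA-binding protein induced by p53, with a log2 fold change of 0.52 (adjusted p 0.384 by limma), and Bbc3, the p53 target that encodes the death protein PUMA, had −0.83 at 4 weeks and −0.85 at 2 weeks (adjusted p 0.415 and 0.603). Sesn2, a stress-induced p53 target, had −0.69 at 4 weeks (adjusted p 0.473 by limma), and Btg2, an antiproliferative p53 target, had the lowest p between 4 and 2 weeks, with −0.56 (adjusted p 1.0). The p53 targets in these lists therefore had values on either side of 0.

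**Figure D5:**
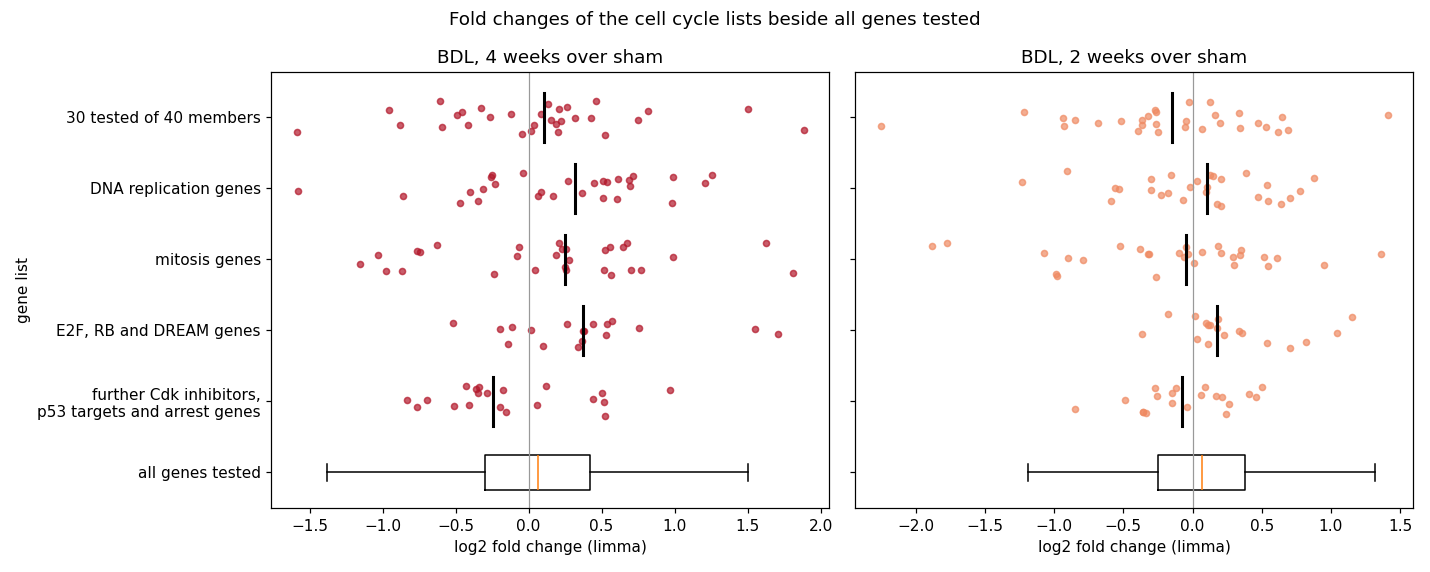
Log2 fold changes by limma at 4 weeks over sham (left) and 2 weeks over sham (right) for the 30 tested cell cycle genes and 4 further lists, 1 point per gene with a black bar at the median, and a box of the quartiles of all 11809 genes tested at the bottom. The medians of the lists lie between −0.24 and 0.37 at 4 weeks and between −0.15 and 0.18 at 2 weeks, inside the box of all genes.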

How the data were processed

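The deposited table holds read counts per gene divided by size factors, a normalized signal in which nearly all values are whole reads: 100.0% of 197424 values were whole multiples of 1 read within 0.001, and reads were recovered from them. The submitters' processing notes name DESeq2 1.22.1 beside StringTie 1.3.3b, HISAT2 2.1.0 and Trim Galore 0.5.0, and the genome mm10. Strand use and the annotation are not given in the sources used here, and 13 of the 40 genes have exons overlapped by a gene on the other strand, whose reads cannot be told apart. GENCODE release 21 of mouse gave gene positions and exon lengths.

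From the deposited signal, log2(value + 1) was tested for genes with a mean of at least 10, with limma 3.58.1 (R 4.3.3) on 3 groups of 3 libraries and 6 residual degrees of freedom before moderation. Called means an adjusted p below 0.05 (Benjamini-Hochberg). Recovered reads were tested with edgeR 4.0.16 and DESeq2 1.42.0 as alternatives. Exact permutation tests gave the correlations. Libraries of a group differed by more than sampling noise (chi-square per degree of freedom 7.44 to 51.3). Nothing in the labels says that libraries came from separate mice, so p-values measure the spread between libraries. Floors cover counting error only.

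The 40 genes and the lists were chosen with earlier results of these data known. Given per library are Mki67, Top2a, Ccnd1, Cdkn1a, Cdkn1c, the 6 genes with the lowest p in each comparison and those that passed. Of each further list, up to 3 genes with the lowest p in a comparison are named.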

Additional observations from a re-analysis of the deposited data

How the results depend on the processing

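In 640 recomputed values of single genes over 21 alternatives, 600 kept their direction and side of the threshold, 14 passed it only in the alternative, and 26 changed sign. Using only the libraries of the 2 groups compared left 53 genes passing at 4 weeks and 1 at 2 weeks, in place of 142 and 2. Library weights gave 1608, 1112 and 349 genes at 4 weeks, at 2 weeks and between 4 and 2 weeks, among them 2 of the 30 cell cycle genes at 4 weeks (Ccnd2 and Pcna), 4 at 2 weeks (Ccnd1, Ccnd2, Mcm2 and Mcm3) and 1 between the times (Ccnd2). DESeq2 gave 573, 211 and 76 genes, with 1 cell cycle gene at each time against sham. A minimum mean of 50 and TMM scaling each gave 1 gene between the times, in place of 0. Of the alternatives added after the data were seen, edgeR without sham replicate 2 called 1 of the 30 genes at each time against sham and 2 of all genes between the times, and edgeR without replicate 1 of the 4-week group called 24 genes and 1 of the 30 at 2 weeks.

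Leaving out each library in turn gave 9 to 173 genes at 4 weeks, 0 to 14 at 2 weeks and 0 to 2 between the times, and 0 to 1, 0 to 1 and 0 to 0 of the 30 cell cycle genes, the 1 being Ccnd2 without sham replicate 2. The 4-week count was 9 without replicate 3 of the 4-week group, 38 without its replicate 2, 74 without replicate 3 of the 2-week group, and 70 and 68 without sham replicates 1 and 3. The 2-week count was 14 without replicate 1 of the 4-week group, 10 without sham replicate 2, 4 without sham replicate 1, 1 without sham replicate 3 and 0 without replicate 2 or 3 of the 2-week group, and sham replicate 2 was the library whose absence gave the 2 genes between the times. The cell cycle medians ran from −0.19 to 0.17 at 4 weeks, from −0.31 to 0.07 at 2 weeks and from 0.10 to 0.30 between the times. The same ranges were −0.0044 to 0.92 for Mki67, −0.17 to 0.53 for Cdkn1a, −0.36 to 0.62 for Cdkn1c and −0.24 to 0.68 for Top2a at 4 weeks, −0.29 to 0.18, −0.55 to 0.25 and −0.69 to 0.18 for Cdkn1a, Cdkn1c and Top2a at 2 weeks, and −0.70 to 0.23, −0.12 to 0.58, −0.30 to 0.67 and −0.023 to 0.71 for Mki67, Cdkn1a, Cdkn1c and Ccnd1 between the times. With weights the 4-week values were −0.12 for Mki67, −0.37 for Cdkn1a and −0.016 for Cdkn1c, and Cdkn1a was −0.065 between the times. TMM scaling put Cdkn1a at 0.0025 at 2 weeks, edgeR without sham replicate 2 put Cdkn1c at −0.18 at 4 weeks, and edgeR without replicate 1 of the 4-week group put Cdkn1a at −0.18 at 4 weeks and −0.068 between the times. The cause of these changes was not tested.

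The replicate numbers did not pair the samples: same-numbered libraries had correlations of −0.45 to 0.23 over 9 pairs, with 2 above 0.1. With the replicate number as a block, 84 genes passed at 4 weeks and 2 at 2 weeks, and 0 of the 30 cell cycle genes in each comparison.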
